A study of Rattus norvegicus and Mus musculus with 34 samples.

Results

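Prostaglandins and leukotrienes are lipid mediators that cells make from arachidonic acid. Cytosolic phospholipase A2 frees the acid from membranes, the cyclooxygenases turn it into prostaglandin H2, and terminal synthases such as microsomal prostaglandin E synthase 1 make the final prostanoid, which acts through receptors on the cell surface. In the lipoxygenase branch, 5-lipoxygenase and its activating protein start leukotriene synthesis, and in healing bone the pathway is best known for prostaglandin E2, which widens vessels, sensitises nerve endings and acts on both bone-forming and bone-resorbing cells.

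The genes described here were chosen by symbol, 10 of the 20022 genes in the rat tables and of the 51912 in the mouse table. They are Pla2g4a (cytosolic phospholipase A2), Ptgs1 and Ptgs2 (cyclooxygenases 1 and 2), Ptges (microsomal prostaglandin E synthase 1), Ptger2 and Ptger4 (the EP2 and EP4 receptors of prostaglandin E2), Hpgd (the dehydrogenase that inactivates prostaglandins), Alox5 (5-lipoxygenase), Alox5ap (its activating protein) and Alox15 (arachidonate 15-lipoxygenase). All 10 were listed for both species, all 10 passed the low-count filter in each rat comparison, and 6 passed it in the macrophages.

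The rat tissue came from 23 male Sprague-Dawley rats labelled wild type, aged 6 to 8 weeks according to the methods. Each had a periodontal bone defect cut on the buccal side of the mandible and received penicillin after surgery. In the sensory nerve- rats about 5 mm of the inferior alveolar nerve, which supplies sensation to the mandible, was also removed, and the sources used here name no sham operation on the nerve for the sensory nerve+ rats. Healing tissue with its mixed cells was taken at day 3, 7 or 14 from 4 rats per nerve state and day, except the sensory nerve+ rats of day 3, of which there were 3. The second experiment used RAW264.7, a mouse macrophage line of a single origin, treated for 6 hours with 100 ng/ml lipopolysaccharide (LPS, a bacterial membrane component) in 6 cultures, or with the same LPS and 10 nM calcitonin gene-related peptide (CGRP, a peptide that sensory neurons release) in 5 cultures. No culture without LPS was analysed here, so the effect of LPS itself has no comparison.

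The rat libraries held between 14854389 and 18742274 expected counts, and the macrophage cultures between 55614185 and 71538840 reads. Levels are given as CPM, the counts of a gene relative to a fixed library total, after scaling by the trimmed mean of M-values (TMM). The sensory nerve- rats of day 7 were deposited in a table of their own, so their group and that table cannot be told apart in any comparison that uses them. The tissue held RNA of many cell types, and a lower share of a cell type cannot be told apart from less RNA per cell. Skeletal muscle and oral epithelium markers both shifted with time. The summed level of 7 muscle markers lay between 19.3 and 564 CPM in the 7 rats of day 3, between 2094 and 35349 CPM in the 8 rats of day 7 and between 217 and 24648 CPM in the 8 rats of day 14. The summed level of 7 oral epithelium markers was 35.5 to 732 CPM in sensory nerve+ and 48.2 to 465 CPM in sensory nerve- rats at day 3, 7.25 to 290 and 3.20 to 14.6 CPM at day 7, and 7.54 to 47.8 and 8.06 to 22.9 CPM at day 14. The part of muscle or epithelial RNA in the day differences was not tested. Over the 23 rats the summed markers of macrophages lay between 477 and 2612 CPM, of fibroblasts between 13210 and 45639, of osteoblasts between 60.4 and 6758, of eosinophils between 5.64 and 634 and of mast cells between 8.30 and 422 CPM. The macrophage marker Marco was at 0 in every rat of 5 of the 6 groups, and the epithelial markers Krt13 and Sprr1a in 4 groups each.

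Among the members, differences passed the test between days and in no comparison of nerve states. Pla2g4a and Ptgs2 were highest at day 3, Ptger4 was highest at day 14, and the other members did not pass at an adjusted p of 0.05 (edgeR quasi-likelihood test, Benjamini-Hochberg adjustment over all tested genes). Between day 3 and day 14, 3 of 10 members passed in sensory nerve- rats, where 23.5% of all tested genes passed, and 2 of 10 in sensory nerve+ rats, where 5.78% passed. Between day 3 and day 7, 2 of 10 passed in sensory nerve- rats against 10.5% of all genes, and none in sensory nerve+ rats against 6.67%, where 2 members and 24.8% of all genes had an unadjusted p under 0.05, and where DESeq2 passed Ptgs2, Ptger2 and 14.4% of all genes. For 10 genes these counts are close to the background shares or rest on 2 or 3 genes, so they describe those genes and not the set.

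**Figure D1:**
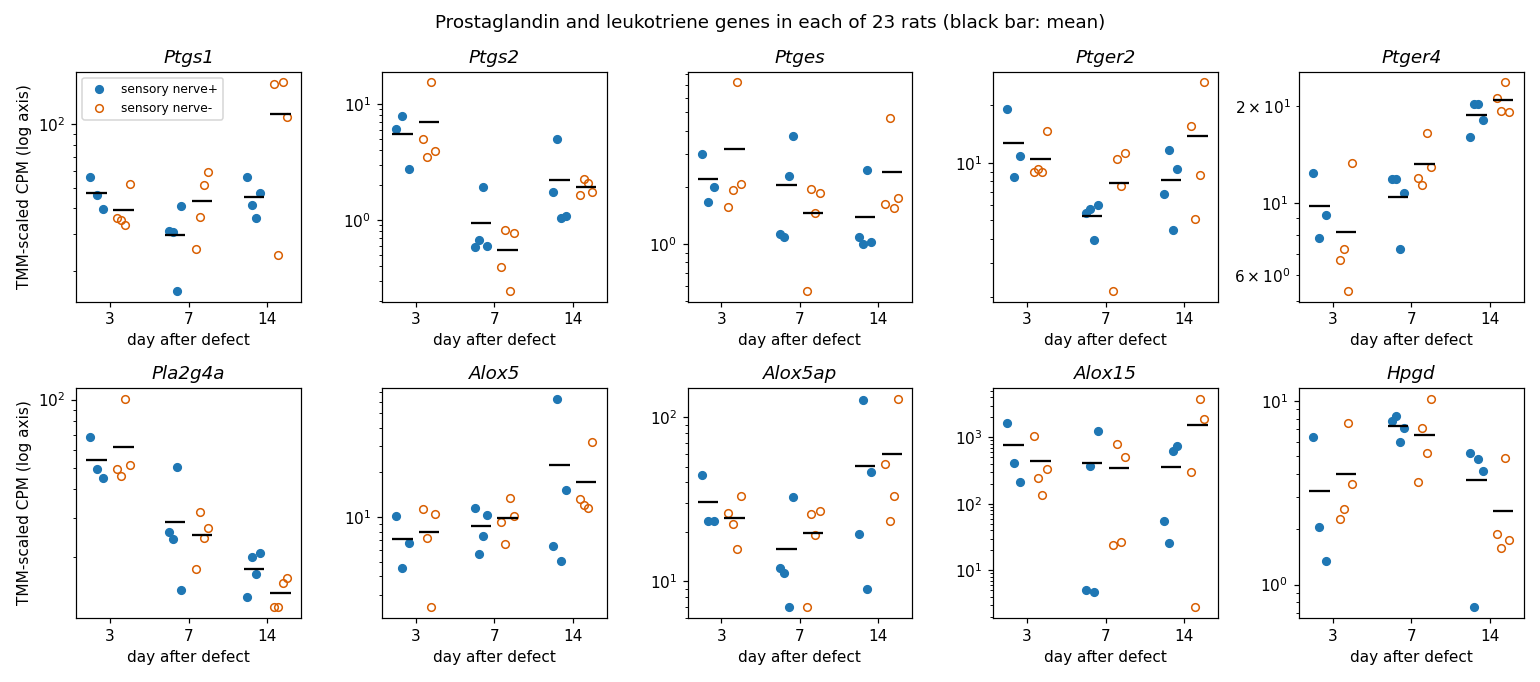
Level of each of the 10 genes in each of 23 rats, in TMM-scaled CPM on a log axis, by day after the defect. Filled points are sensory nerve+ rats, open points sensory nerve- rats, and black bars are group means; Pla2g4a and Ptgs2 stand highest at day 3, Ptger4 at day 14, and Alox15 spans 2.76 to 3848 CPM.

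Pla2g4a, the enzyme that supplies free arachidonic acid, fell from day 3 to day 14 in both nerve states. Its level in sensory nerve+ rats was 68.6, 49.3 and 44.9 CPM at day 3, then 25.8, 24.1, 50.3 and 14.4 CPM at day 7, and 13.4, 20.0, 16.9 and 20.9 CPM at day 14. Sensory nerve- rats held 49.2, 46.0, 101 and 51.5 CPM at day 3, then 17.7, 31.8, 24.3 and 27.1 CPM at day 7, and 12.0, 12.0, 15.3 and 16.3 CPM at day 14. The day 3 and day 14 groups did not overlap in either nerve state, and in sensory nerve- rats none of the 3 days overlapped with another. One sensory nerve+ rat of day 7, at 50.3 CPM, lay within the range of day 3.

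The level of Pla2g4a was 3.01-fold higher at day 3 than at day 14 in sensory nerve+ rats (log2 fold change 1.59, SE 0.22, adjusted p = 0.0272) and 4.62-fold higher in sensory nerve- rats (log2 fold change 2.21, SE 0.29, adjusted p = 0.0034). The second of these held with any 1 of the 8 rats left out, whereas the first was lost without sensory nerve+ replicate 1 or 3 of day 3 or replicate 1, 3 or 4 of day 14, with adjusted p from 0.0504 to 0.110. Against day 7, day 3 was 2.49-fold higher in sensory nerve- rats (log2 fold change 1.32, SE 0.31, adjusted p = 0.0364). That call was lost without replicate 1, 2 or 4 of day 3 or replicate 1, 3 or 4 of day 7, with adjusted p from 0.0586 to 0.0933. The day 3 to day 7 difference of sensory nerve+ rats was 0.86 on the log2 scale (SE 0.41, adjusted p = 0.252), which became 1.30 with an adjusted p of 0.0363 without replicate 3 of day 7. Between day 7 and day 14 the log2 fold change was 0.68 (SE 0.37, adjusted p = 0.585) in sensory nerve+ and 0.85 (SE 0.21, adjusted p = 0.104) in sensory nerve- rats.

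Ptgs2, the inducible cyclooxygenase, was low in CPM throughout and lowest at day 7. Sensory nerve+ rats stood at 6.08, 7.81 and 2.72 CPM at day 3, at 0.588, 0.677, 1.92 and 0.593 CPM at day 7, and at 1.75, 4.96, 1.03 and 1.09 CPM at day 14. Sensory nerve- rats stood at 4.93, 3.47, 15.3 and 3.91 CPM at day 3, at 0.394, 0.813, 0.244 and 0.771 CPM at day 7, and at 1.64, 2.26, 2.10 and 1.76 CPM at day 14. The 3 days of sensory nerve- rats did not overlap and ran from day 3 through day 14 down to day 7. Among sensory nerve+ rats day 3 lay above day 7 without overlap, while day 14 overlapped with both. The lowest library held 5 counts of Ptgs2 and the highest 328, so the day 7 values carry a large counting error.

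In sensory nerve- rats Ptgs2 was 12.6-fold higher at day 3 than at day 7 (log2 fold change 3.66, SE 0.66, adjusted p = 0.0184) and 3.70-fold higher at day 3 than at day 14 (log2 fold change 1.89, SE 0.53, adjusted p = 0.0360). The first was lost without replicate 1 of day 3 (adjusted p = 0.0545) or replicate 3 of day 7 (adjusted p = 0.0564). The second was lost without replicate 1 of day 3 or any 1 rat of day 14, with adjusted p from 0.0506 to 0.0889. Without the highest rat, replicate 3 of day 3, both calls remained, and the log2 fold changes were 2.88 and 1.12. Among sensory nerve+ rats Ptgs2 was 5.53-fold higher at day 3 than at day 7 (log2 fold change 2.47, SE 0.60), with an adjusted p of 0.0562 that fell to 0.0127 without replicate 3 of day 7. The day 3 to day 14 difference there was 1.31 on the log2 scale (SE 0.66, adjusted p = 0.241), and without replicate 2 of day 14 it was 2.04 with an adjusted p of 0.0330. Day 7 against day 14 gave -1.80 on the log2 scale (SE 0.42, adjusted p = 0.104) in sensory nerve- rats. DESeq2 passed this difference and the sensory nerve+ difference between day 3 and day 7, with adjusted p of 0.00242 and 0.00109.

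Oral epithelium markers, and mast cell markers too, stood high in several of the rats with the most Ptgs2 and Pla2g4a. Sensory nerve- replicate 3 of day 3, the highest rat for both genes, had the highest epithelial sum of its group, 465 CPM against 48.2 to 241 CPM. Sensory nerve+ replicate 3 of day 7, the highest of its group for both, had 290 CPM against 7.25 to 18.6 CPM, and replicate 2 of day 14, the highest of its group for Ptgs2, had 47.8 CPM against 7.54 to 10.5 CPM. In sensory nerve+ rats of day 3 the order held in part. Replicate 2, with an epithelial sum of 732 CPM, the highest of its group, also had the most Ptgs2, 7.81 CPM. Replicate 3 had the least Ptgs2 and Pla2g4a beside 382 CPM, and replicate 1 the most Pla2g4a beside 35.5 CPM. Replicate 1 also had the lowest mast cell sum of its group, 11.3 CPM. In sensory nerve- rats the basal keratins Krt5 and Krt14 were higher at day 3 than at day 7 (log2 fold changes 6.72 and 6.69, adjusted p = 0.0255 and 0.0275) and than at day 14 (9.02 and 8.25, adjusted p = 0.0035 and 0.0044), 2 of 4 tested epithelial markers each time. Among sensory nerve+ rats 1 of 4, Dsg3, passed between day 3 and day 7 (log2 fold change 2.04, adjusted p = 0.0220) and none between day 3 and day 14, where 3 had an unadjusted p under 0.05. Mast cell sums were also highest of their group in sensory nerve+ replicate 2 of day 3, at 181 CPM. The same held for sensory nerve+ replicate 3 of day 7 (269 CPM) and replicate 2 of day 14 (422 CPM). In sensory nerve- rats it held for replicate 3 of day 3 (64.9 CPM) and replicate 2 of day 14 (138 CPM). Replicate 2 of sensory nerve- day 7, highest of its group for both genes, had the lowest mast cell sum there, 14.7 CPM. The part of epithelial or mast cell RNA in the 2 genes was not tested.

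Pla2g4a and Ptgs2 lie next to each other in the genome: in RefSeq on GRCr8, rat chromosome 13 holds no other protein-coding gene between them, and in GENCODE vM21 on mm10 the same was true of mouse chromosome 1. GRCr8 is a later build than the one the rat reads were aligned to, so only names, order and sequence were taken from it. The 250 bases before each start are printed because these are the 2 members that passed as higher at day 3, Ptgs2 in sensory nerve- rats only. Capitals mark matches to the searched motifs, and positions count back from -1, the base before the start.

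Ptgs2, chr13:64713813-64714062, plus strand: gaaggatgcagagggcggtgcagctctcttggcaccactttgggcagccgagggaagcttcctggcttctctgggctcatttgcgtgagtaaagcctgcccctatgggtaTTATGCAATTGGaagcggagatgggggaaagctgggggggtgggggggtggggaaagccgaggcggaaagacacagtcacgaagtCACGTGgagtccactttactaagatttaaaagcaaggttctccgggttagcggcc
Pla2g4a, chr13:64572353-64572602, minus strand: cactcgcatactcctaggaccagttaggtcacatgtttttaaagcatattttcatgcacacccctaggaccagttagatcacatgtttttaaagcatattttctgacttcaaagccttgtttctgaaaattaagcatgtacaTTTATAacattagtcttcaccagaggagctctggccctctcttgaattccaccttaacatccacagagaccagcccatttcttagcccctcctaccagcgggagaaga

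The Ptgs2 window held CACGTG, the palindromic E-box, at -55 to -50, and TTNNGCAAT, a form of the C/EBP motif, at -140 to -132, overlapping by 2 bases with CCAAT read on the opposite strand at -133 to -129. The Pla2g4a window held TATAAA on the opposite strand at -108 to -103 and no match to the other motifs. On either strand, CACGTG was in 5.59%, TTNNGCAAT in 2.04%, CCAAT in 34.0% and TATAAA in 12.9% of the 33469 rat promoter windows of the same length. CACGTG and TTNNGCAAT were added after the sequences were seen, so their presence in the Ptgs2 window was known beforehand and their shares test nothing. The windows differed in base composition, with 57.2% G and C for Ptgs2 and 42.4% for Pla2g4a, against a median of 51.2% over all windows. Of TGACGTCA, the cyclic AMP response element, and TGACG, which is part of it, neither was in these windows; the first was in 1.59% and the second in 18.2% of all windows. Promoter windows were on hand for 8 of the 10 members, and Alox5ap and Alox15 had none.

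**Figure D2:**
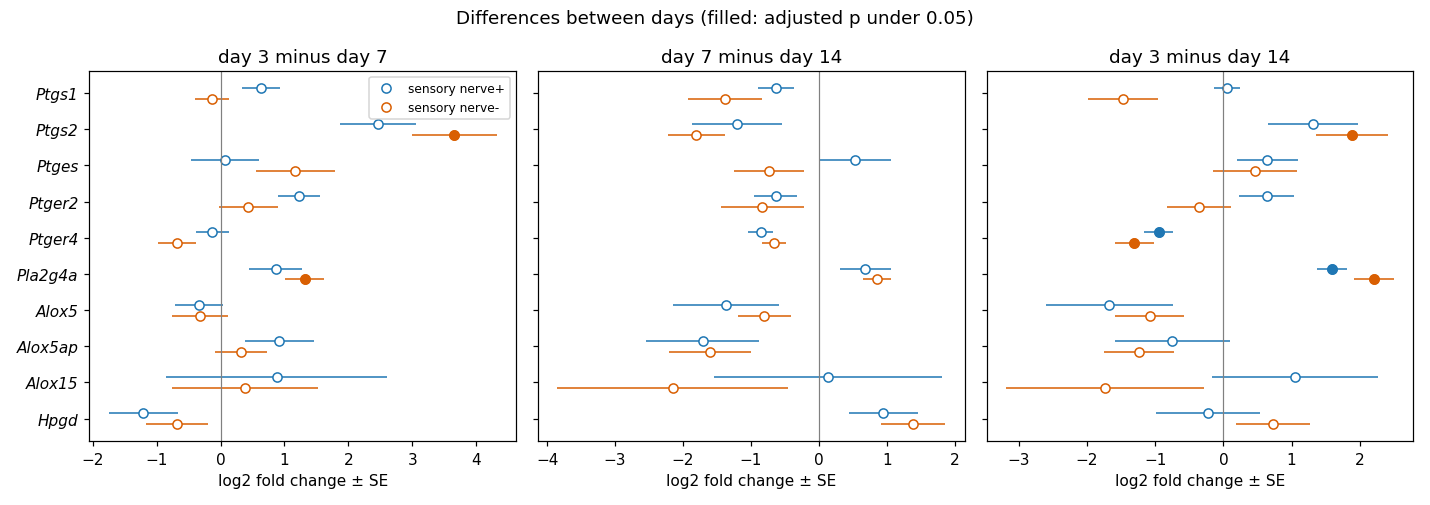
Log2 fold change of the 10 genes between days, with 1 SE, for sensory nerve+ (blue, upper) and sensory nerve- rats (orange, lower); a positive value is higher on the first day named. Filled points passed at an adjusted p of 0.05: Ptgs2 and Pla2g4a for day 3 minus day 7 in sensory nerve- rats, and Pla2g4a, Ptger4 and, in sensory nerve- rats, Ptgs2 for day 3 minus day 14.

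Ptgs1, the constitutive cyclooxygenase and the form found in platelets, did not follow Ptgs2. Its level in sensory nerve+ rats was 56.3, 46.1 and 39.5 CPM at day 3, 31.1, 30.8, 16.1 and 40.8 CPM at day 7, and 55.9, 41.4, 36.0 and 47.4 CPM at day 14. Sensory nerve- rats had 35.8, 35.2, 33.3 and 51.8 CPM at day 3, 25.5, 36.5, 51.3 and 59.3 CPM at day 7, and 156, 24.0, 158 and 108 CPM at day 14. The last group held the 3 highest values of all 23 rats together with the second lowest.

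Day 3 against day 14 in sensory nerve- rats gave Ptgs1 -1.48 on the log2 scale (SE 0.51, adjusted p = 0.0701), and without replicate 2 of day 14, the rat at 24.0 CPM, it was -1.81 with an adjusted p of 0.0031. DESeq2 and the fit of all 23 rats passed the difference with all rats, at adjusted p of 0.0158 and 0.0109. The summed level of 6 platelet and megakaryocyte markers in these 4 rats was 2517, 58.4, 2213 and 1838 CPM, high in the same 3 rats and low in replicate 2. In the other 19 rats this sum lay between 16.3 and 690 CPM, and its part in the Ptgs1 values was not tested.

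Ptges, which makes prostaglandin E2 downstream of the cyclooxygenases, was among the least counted members, from 0.562 to 7.23 CPM. Group means lay between 1.40 ± 0.72 CPM (SD, n = 4) in sensory nerve+ rats of day 14 and 3.21 ± 2.69 CPM (SD, n = 4) in sensory nerve- rats of day 3. The highest value, 7.23 CPM, came from sensory nerve- replicate 3 of day 3, the rat that also held the highest Ptgs2 and Pla2g4a. No day difference of Ptges passed, with adjusted p from 0.248 to 0.957 in the 6 comparisons of days.

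Ptger4, the EP4 receptor, ran opposite to Pla2g4a and rose towards day 14. Values in sensory nerve+ rats were 12.4, 7.81 and 9.19 CPM at day 3, 11.9, 11.9, 7.23 and 10.8 CPM at day 7, and 16.0, 20.3, 20.3 and 18.1 CPM at day 14. Those in sensory nerve- rats were 6.67, 7.22, 5.36 and 13.3 CPM at day 3, 12.0, 11.4, 16.5 and 12.98 CPM at day 7, and 21.2, 19.2, 23.6 and 19.2 CPM at day 14. All 4 rats of day 14 lay above all rats of the earlier days in each nerve state, while days 3 and 7 overlapped.

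Ptger4 was 1.93-fold higher at day 14 than at day 3 in sensory nerve+ rats (log2 fold change of day 3 against day 14 -0.95, SE 0.21, adjusted p = 0.0490) and 2.48-fold higher in sensory nerve- rats (log2 fold change -1.31, SE 0.29, adjusted p = 0.0170). The first call was at the edge of the threshold and was lost without any 1 rat other than replicate 2 of day 14, with adjusted p from 0.0625 to 0.172. The second was lost without replicate 1 (adjusted p = 0.0530) or 2 (adjusted p = 0.0512) of day 3, and also when libraries were scaled by their totals, where the log2 fold change was -0.91 and the adjusted p was 0.157. That scaling moved the median log2 fold change of all genes in this comparison from 0.05 to 0.42. Day 7 against day 14 gave -0.86 (SE 0.19, adjusted p = 0.297) in sensory nerve+ and -0.66 (SE 0.17, adjusted p = 0.108) in sensory nerve- rats, both without overlap of the groups, and day 3 against day 7 in sensory nerve- rats gave -0.69 (SE 0.29, adjusted p = 0.167), which without replicate 4 of day 3 was -1.04 with an adjusted p of 0.0465. Between day 7 and day 14 only 3 of all tested genes passed in sensory nerve+ rats (0.0202%) and 2 in sensory nerve- rats (0.0138%), and no member did. At an unadjusted p under 0.05 there were 2 and 6 members, where 9.42% and 23.5% of all genes reached it. DESeq2 passed Ptger4 in sensory nerve+ rats, beside 1.77% of all genes, and Ptgs2, Ptger4, Pla2g4a and Hpgd in sensory nerve- rats, beside 10.4%.

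Ptger2, the EP2 receptor, ranged from 2.14 to 26.3 CPM and did not share the course of Ptger4. In sensory nerve+ rats it stood at 19.03, 8.38 and 10.8 CPM at day 3 and at 5.44, 5.73, 3.93 and 6.02 CPM at day 7, without overlap. The difference was 2.35-fold (log2 fold change 1.23, SE 0.33) with an adjusted p of 0.0714 in edgeR and 0.00577 in DESeq2. The 3 days of sensory nerve- rats overlapped, and day 14 alone spanned 5.07 to 26.3 CPM.

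Hpgd, which breaks down prostaglandin E2, was highest on average at day 7 in both nerve states, with 7.29 ± 0.99 CPM (SD, n = 4) in sensory nerve+ and 6.55 ± 2.87 CPM (SD, n = 4) in sensory nerve- rats. At day 3 the means were 3.24 ± 2.71 CPM (SD, n = 3) and 3.99 ± 2.47 CPM (SD, n = 4), and at day 14 they were 3.72 ± 2.03 CPM and 2.52 ± 1.56 CPM (SD, n = 4 each). None of these differences passed in edgeR. The log2 fold changes of day 3 against day 7 were -1.21 (SE 0.54, adjusted p = 0.224) and -0.68 (SE 0.48, adjusted p = 0.386), and those of day 7 against day 14 were 0.95 (SE 0.51, adjusted p = 0.582) and 1.39 (SE 0.47, adjusted p = 0.149), each time for sensory nerve+ and then sensory nerve- rats. The sensory nerve+ difference between day 3 and day 7 was -2.10 with an adjusted p of 0.0475 without replicate 1 of day 3. At day 7 Hpgd was thus at its highest mean where Ptgs2 was at its lowest, but of these differences only that of Ptgs2 between day 3 and day 7 in sensory nerve- rats passed the test.

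The 2 genes of the leukotriene branch varied mostly between rats of the same group. Alox5 lay between 2.47 and 62.9 CPM and Alox5ap between 6.93 and 130 CPM, and the highest rats were sensory nerve+ replicate 2 of day 14 (Alox5 62.9 and Alox5ap 127 CPM) and sensory nerve- replicate 4 of day 14 (Alox5 32.0 and Alox5ap 130 CPM). These rats also had the highest summed levels of 9 neutrophil markers, 7533 and 6486 CPM, against 94.7 to 2501 CPM in the other 21 rats. Their eosinophil sums, 634 and 193 CPM, were the highest too, against 5.64 to 96.3 CPM in the others, and the first of them had the highest mast cell sum, 422 CPM, while the second had 17.5 CPM. The part of these cell types in the 2 genes was not tested.

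No day difference of Alox5 or Alox5ap passed with all rats. Alox5 lay above its day 3 values in all 4 sensory nerve- rats of day 14 (11.6 to 32.0 CPM against 2.47 to 11.4 CPM), with a log2 fold change of -1.08 (SE 0.51) for day 3 against day 14 and an adjusted p of 0.154. For Alox5ap the same comparison gave -1.24 (SE 0.51, adjusted p = 0.113), and it gave -1.51 with an adjusted p of 0.0455 without replicate 2 of day 14 but -0.55 with an adjusted p of 0.298 without replicate 4 of day 14, the rat highest in Alox5ap.

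Alox15, the lipoxygenase of maturing red cells and of some macrophages and eosinophils, spread over the widest range of the 10. In sensory nerve+ rats it was 1662, 409 and 212 CPM at day 3, 5.00, 368, 4.79 and 1249 CPM at day 7, and 55.3, 26.0, 629 and 736 CPM at day 14. Sensory nerve- rats had 1063, 249, 138 and 337 CPM at day 3, 24.1, 811, 27.0 and 506 CPM at day 7, and 304, 2.76, 3848 and 1901 CPM at day 14. The groups overlapped in every comparison, and the SE of its log2 fold changes between days was between 1.14 and 1.73. The rats lowest and highest in Alox15 differed in the summed level of 7 erythroid markers. The lowest, sensory nerve- replicate 2 of day 14, had an erythroid sum of 325 CPM, and the highest, replicate 3 of that group, one of 10682 CPM. The lowest erythroid sum, 113 CPM, was in sensory nerve+ replicate 3 of day 7, at 4.79 CPM of Alox15. Sensory nerve- replicate 3 of day 3 held 138 CPM of Alox15 beside an erythroid sum of 251 CPM. The part of red cell RNA in the Alox15 values was not tested.

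**Figure D3:**
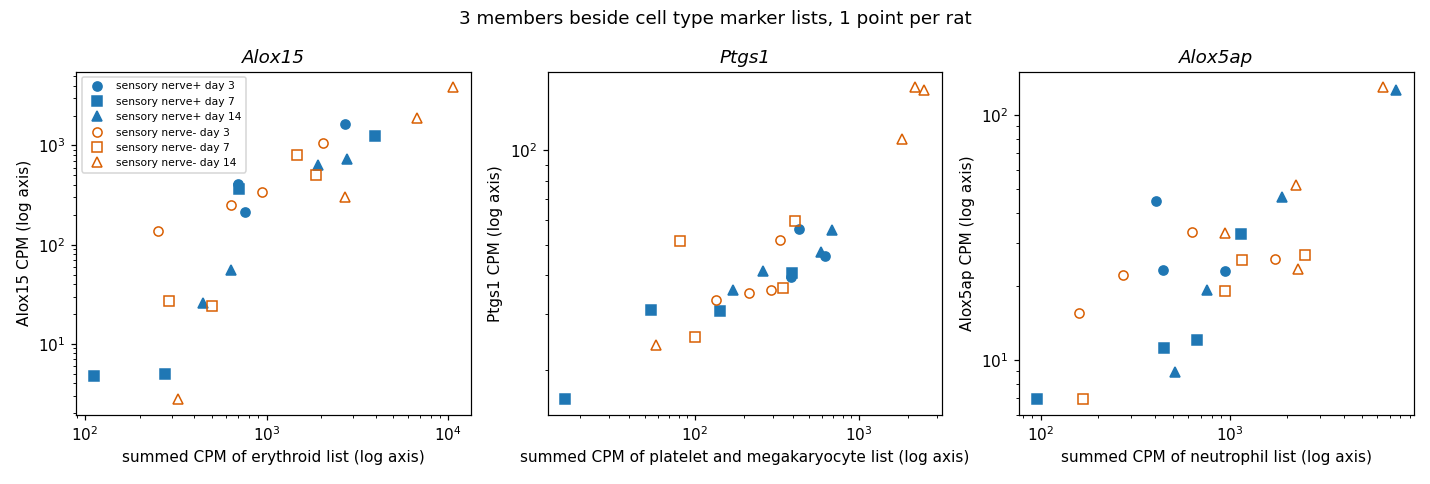
CPM of Alox15, Ptgs1 and Alox5ap against the summed CPM of the erythroid, the platelet and megakaryocyte, and the neutrophil marker list, 1 point per rat and log axes throughout. Among sensory nerve- rats of day 14 (open triangles) Alox15 runs from 2.76 to 3848 CPM as the erythroid sum runs from 325 to 10682 CPM, and Ptgs1 stands at 24.0 CPM in the rat with a platelet sum of 58.4 CPM.

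The genes with the most similar course over the 23 rats were named by a fixed rule. Among 15858 genes, the 3 with the highest Pearson correlation with Alox15 were Hbb-bs (a beta globin, r = 0.97), Alas2 (the erythroid enzyme that starts haem synthesis, r = 0.96) and LOC100134871 (r = 0.96). For Alox5ap they were Il17ra (an interleukin-17 receptor chain, r = 0.97), Tlr1 (a Toll-like receptor, r = 0.96) and LOC691141 (r = 0.96), and for Ptger2 they were Myd88 (the adaptor of Toll-like receptors, r = 0.92), Rab8b (r = 0.92) and Tlr6 (r = 0.91). These are descriptions over log2(CPM + 0.5) in 23 rats that share days, nerve states and tissue composition, and each is the highest of many correlations.

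The closest genes were C1galt1 for Ptgs1 (r = 0.93), Tf for Alox5 (transferrin, r = 0.90), Tm9sf3 for Pla2g4a (r = 0.94), Baz1b for Ptgs2 (r = 0.89), Gramd4 for Ptger4 (r = 0.90), Galnt16 for Hpgd (r = 0.88) and Rcn3 for Ptges (r = 0.82). When each rat was taken as its deviation from its group mean, the correlation stayed at 0.98 for Alox15 with Hbb-bs and at 0.97 for Alox5ap with Il17ra. It was lower for the members that changed with day, at 0.74 for Pla2g4a with Tm9sf3 and 0.62 for Ptgs2 with Baz1b.

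Transection of the nerve was the comparison the rat experiment was designed for, and no member passed in it. At day 3, day 7 and day 14, 0% of 14695, 14716 and 14610 tested genes passed in edgeR, where 122, 215 and 1362 genes, among them 0, 0 and 1 member, reached an unadjusted p under 0.05. DESeq2 passed 0, 1 and 104 genes, none of them a member. Averaged over the 3 days in a fit of all 23 rats, 0% of 15858 genes passed, and the members' log2 differences (sensory nerve- minus sensory nerve+) ran from -0.22 for Ptgs2 (SE 0.35, adjusted p = 0.940) to 0.52 for Ptgs1 (SE 0.24, adjusted p = 0.912). The test of whether the transection difference changed between days passed for 0% of 15858 genes, with an adjusted p of 0.998 for each of the 10 members. In each of these 2 tests 1 member had an unadjusted p under 0.05, as had 708 and 475 of all genes, and DESeq2 passed 7 and 0 genes with no member among them. A day difference that passed in 1 nerve state and not in the other is therefore not shown to differ between them.

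The member with the smallest unadjusted p for transection was Ptgs1, at day 14. Its mean was 112 ± 62.8 CPM (SD, n = 4) in sensory nerve- and 45.2 ± 8.55 CPM (SD, n = 4) in sensory nerve+ rats, with a log2 difference of 1.29 (SE 0.51, adjusted p = 0.519). Alox15 had the largest difference there, 2.06, with an SE of 1.68 and an adjusted p of 0.670. Without sensory nerve- replicate 3 it was 0.99 (adjusted p = 0.845), and without sensory nerve+ replicate 4 it was 2.71 (adjusted p = 0.833). The platelet sum had a median of 2025 CPM in these sensory nerve- rats and 426 CPM in the sensory nerve+ rats, and the erythroid sum 4713 and 1274 CPM, with overlapping groups for both.

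Beyond the 10 members, 45 further genes of arachidonate supply, prostanoid and leukotriene synthesis, receptors, transport and breakdown were counted. Between day 3 and day 14 in sensory nerve- rats, 14 of 38 tested passed, 7 higher and 7 lower at day 3, where 14.6% of all tested genes were higher and 8.89% lower. The median log2 fold change of the list was -0.31, against 0.05 over all genes. Scaling by library totals left 876 genes higher and 308 lower in place of 2112 and 1284.

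Higher at day 3 in this comparison were Acsl4, which loads arachidonate onto coenzyme A (2.48-fold, log2 fold change 1.31, SE 0.14, adjusted p = 0.0021), Ptges3, the cytosolic prostaglandin E synthase and Hsp90 co-chaperone (1.77-fold, adjusted p = 0.0052), Cbr1, a carbonyl reductase that acts on prostaglandins (1.96-fold, adjusted p = 0.0112), and Akr1b1, an aldo-keto reductase (1.54-fold, adjusted p = 0.0123). Lower at day 3 were Ptger1, the EP1 receptor (1.996-fold, log2 fold change -0.997, SE 0.16, adjusted p = 0.0056), Tbxa2r, the thromboxane receptor (2.53-fold, adjusted p = 0.0155), Cysltr2, a cysteinyl leukotriene receptor (5.28-fold, adjusted p = 0.0157), and Fpr2, a formyl peptide receptor that also binds lipoxin A4 (9.35-fold, adjusted p = 0.0225). Of the 10 receptor genes of the list that could be tested, these 4 passed and the other 6 did not. This grouping was made after the values were seen, and 8.89% of all tested genes passed as lower at day 3. Of the receptors among the members, Ptger4 passed as lower too and Ptger2 did not pass. Also higher at day 3, and named after their values were seen, were Lpcat3 (1.49-fold), Lta4h (1.62-fold) and Tbxas1 (2.27-fold). The other 3 genes lower at day 3, named likewise, were Slco2a1 (a prostaglandin transporter), Ptgis (prostacyclin synthase) and Ggt5 (an enzyme of leukotriene conversion). Markers of several cell types moved with the same comparison. The macrophage markers Msr1, Mrc1 and Cd14 passed as higher at day 3 (3 of 9 tested, log2 fold changes 4.05, 1.75 and 1.69). Of these 9 markers, 5 had a log2 fold change above 0 and 4 below, with a median of 0.57. The macrophage sum was 1071 to 2569 CPM against 650 to 1614 CPM at day 14. The epithelial sum was 48.2 to 465 CPM against 8.06 to 22.9 CPM. Lower at day 3 were the mast cell markers Cma1 and Cpa3 (2 of 4, log2 fold changes -5.44 and -5.32) and 2 of 6 muscle markers. So were the neutrophil markers Csf3r and Cxcr2 (2 of 9, log2 fold changes -2.82 and -3.85). The eosinophil marker Siglec5 (1 of 5, log2 fold change -2.87) and 1 of 6 platelet markers passed as lower too. The neutrophil sum was 159 to 1734 CPM at day 3 and 946 to 6486 CPM at day 14, the platelet sum was 136 to 330 and 58.4 to 2517 CPM, and the part of these cell types in these genes was not tested.

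In the other comparisons few of these genes passed. Between day 3 and day 7, Acsl4 (1.40-fold, adjusted p = 0.0231), Ptges3 (1.55-fold, adjusted p = 0.0269) and Cbr1 (1.84-fold, adjusted p = 0.0417) were higher at day 3 in sensory nerve- rats, 3 of 39 tested against 10.5% of all genes. Among sensory nerve+ rats Mgll, a monoacylglycerol lipase (2.54-fold, adjusted p = 0.0357), and Ptges2, a membrane-associated prostaglandin E synthase (1.53-fold, adjusted p = 0.0479), were lower at day 3, 2 of 40 tested against 6.67% of all genes. None of 40 passed between day 3 and day 14 in sensory nerve+ rats against 5.78% of all genes. There 12 had an unadjusted p under 0.05, as had 28.2% of all genes, and DESeq2 passed 8 of 45, against 17.8%. In the comparison of day 7 with day 14 none passed, 7 of 39 in sensory nerve+ and 20 of 38 in sensory nerve- rats had an unadjusted p under 0.05 (9.42% and 23.5% of all genes), and DESeq2 passed 0 and 15 of 44 each (1.77% and 10.4% of all genes). For transection none passed in edgeR or DESeq2 on any day. At an unadjusted p under 0.05 in edgeR there were 1, 0 and 3, beside 0.83%, 1.46% and 9.32% of all genes.

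In the LPS-treated macrophages the question was whether CGRP changed these genes, and none of the 6 testable members passed. CGRP passed for 2 of 11906 genes (0.0168%) in limma, for none in edgeR and for 75 in DESeq2 on whole reads, and no member was among them. In limma 1 member, Pla2g4a, had an unadjusted p under 0.05, as had 1291 of all genes (10.8%). Of the further pathway genes, 21 could be tested and none passed by limma, edgeR or DESeq2. In limma 3 of the 21 had an unadjusted p under 0.05, beside the same 10.8% of all genes. The line was macrophage-like by its markers, with 6 of 10 macrophage markers above a median of 0.5 CPM and a summed level of 4185 to 4361 CPM, while Cd163 and Marco had no read in any culture.

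Ptgs2 was the most abundant member per exon length, at 69.1 ± 2.97 CPM per kb (SD, n = 6) with LPS and 70.5 ± 0.82 CPM per kb (SD, n = 5) with LPS and CGRP. Alox5ap followed at 55.8 ± 2.21 CPM per kb, then Pla2g4a at 17.3 ± 0.32, Ptges at 3.92 ± 0.10, Ptger4 at 1.07 ± 0.04 and Alox5 at 0.467 ± 0.053 CPM per kb (SD, n = 6 each, with LPS). No neighbours in this order overlapped in any culture. 5-lipoxygenase RNA was thus the scarcest of the 6, while that of its activating protein was among the most abundant.

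The 6 cultures with LPS held Ptgs2 at 299 to 332 CPM (median 321), and the 5 with CGRP at 320, 321, 329, 323 and 321 CPM. The log2 difference was 0.03, with a 95% interval from -0.02 to 0.08 and an adjusted p of 0.677. For Pla2g4a it was 0.04 (95% interval 0.003 to 0.07, adjusted p = 0.425), for Ptges 0.01 (-0.05 to 0.07, adjusted p = 0.946), for Ptger4 0.01 (-0.07 to 0.10, adjusted p = 0.942) and for Alox5ap -0.001 (-0.05 to 0.05, adjusted p = 0.990). Alox5 had the widest interval, -0.07 (-0.22 to 0.08, adjusted p = 0.764), at 96 to 140 reads per culture. These intervals come from limma, are per gene and not adjusted for the number of genes, and the groups overlapped for all 6 genes.

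**Figure D4:**
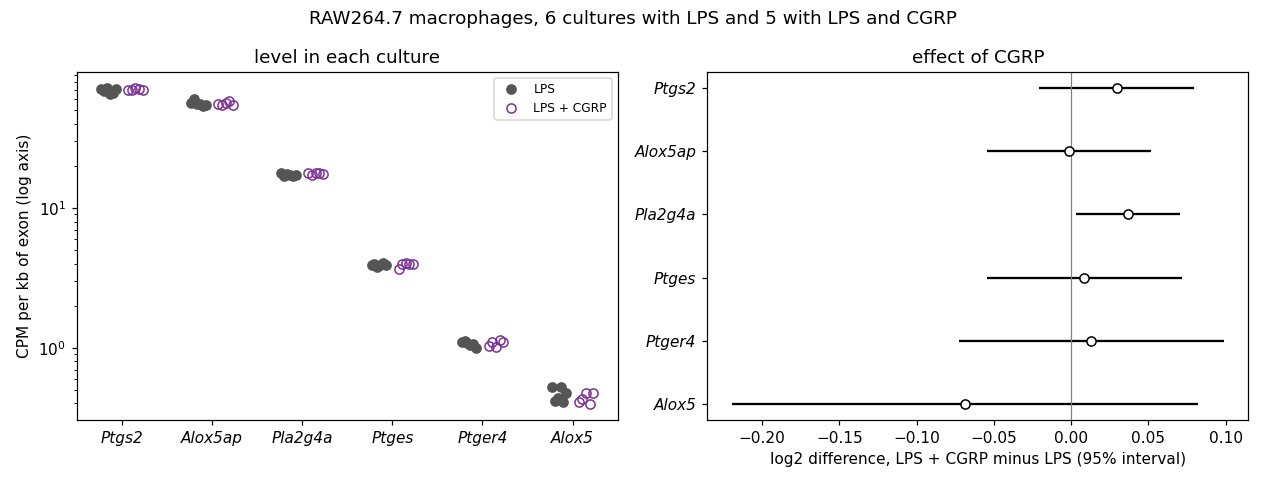
Left, level of the 6 testable members in each RAW264.7 culture, in CPM per kb of exon on a log axis, with LPS (filled) or LPS and CGRP (open); right, log2 difference of LPS and CGRP minus LPS with its 95% interval. The members keep the same order from Ptgs2 at 69.1 to Alox5 at 0.467 CPM per kb in both groups, and each difference lies between -0.07 and 0.04.

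The other 4 members were at or near the limit of detection in the line. Ptgs1 had 1 to 6 reads per culture, Alox15 had 3 to 10 and Ptger2 had 9 to 24. Hpgd had 0 reads in all 11 cultures, where a count of 0 allows up to 3 reads, or 0.0419 to 0.0539 CPM, by counting error alone. In GENCODE vM21, Ptger4 overlaps Ttc33 and Gm15937 on the opposite strand. Pla2g4a overlaps n-R5s219, and Alox5ap overlaps n-R5s180 and Gm19719, also on the opposite strand. The strand setting of the counting is not given in the sources used here, so reads of these partners cannot be told apart. Ptges overlaps the processed pseudogene Gm13400 on its own strand, where no strand setting separates the reads. Thus Ptgs2, Alox5ap, Pla2g4a, Ptges, Ptger4 and Alox5 could be tested in the macrophages, within the limit of these overlaps. Ptgs1, Ptger2, Alox15 and Hpgd, all counted in the rat tissue, could not be tested there.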

How the data were processed

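RNA sequencing of rat healing tissue (23 rats, DNBSEQ platform) and of RAW264.7 cultures (11 cultures, Illumina NextSeq, a directional library kit) was used. The authors aligned rat reads with HISAT to mRatBN7.2, and their processing notes also name Bowtie2. They deposited expected counts per gene in 2 tables, of which 37.0% are whole numbers, and these were rounded to whole counts here. The counting program for the rat reads is not given in the sources used here. Mouse reads were trimmed with cutadapt and aligned with STAR to mm10, and the methods name featureCounts and DESeq2. The deposited mouse values (unit: signal) are whole counts multiplied by 1 factor per run, larger for runs with larger totals. Whole reads were recovered for 100% of values within 0.01 read, and 2 runs per culture were summed. Of the 51912 mouse genes 20845 had no symbol.

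Rats were tested with edgeR 4.0.16 (quasi-likelihood, TMM, filterByExpr), each pair of groups in its own fit, and all 23 rats together for the transection difference averaged over days and for its change between days. Macrophages were tested with limma 3.58.1 with trend on log2(TMM-scaled CPM + 0.5), for genes above 0.5 CPM in at least 5 cultures; a fold change on that scale understates the change of low genes. Adjusted p-values are Benjamini-Hochberg values over all tested genes, with a threshold of 0.05. Alternatives were DESeq2 1.42.0, other scalings, filters and pseudocounts, a replicate block, single runs, days 3 and 14 only, 1 fit of all rats, and each sample left out in turn. The models were tested on simulated data. Nothing in the labels says whether the cultures were started separately, so p-values there measure the spread between those samples, which may be technical. Intervals of low counts cover counting error only.

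The 10 members and all gene lists were chosen with earlier results of these data known. Named were all members, of the 45 pathway genes the 4 with the smallest p in each direction among those that passed, and for each member the most correlated of the tested genes, at most 3. The remaining pathway genes that passed between day 3 and day 14 in sensory nerve- rats were named after their values were seen. CACGTG and TTNNGCAAT were added after the promoter sequences were seen. Promoters came from RefSeq (GRCr8), exon lengths from GENCODE vM21 (mm10), as the union of a gene's exons. Marker lists of 10 cell types were summed per sample: macrophage, neutrophil, eosinophil, mast cell, platelet and megakaryocyte, erythroid, fibroblast, osteoblast, skeletal muscle and oral epithelium.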

Additional observations from a re-analysis of the deposited data

Results flagged for a closer look

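Within groups of 4 to 6 samples, 11 of 62 sets of member values held 1 sample far from the others by Dixon's test at the 95% level. Chance alone gives about 1 in 20 for independent sets with a normal spread. These sets were CPM without logs and shared the same samples, so the 2 rates cannot be compared directly. Sensory nerve- replicate 3 of day 3 stood apart for 3 members: Ptgs2 at 15.3 CPM (group median 4.42), Ptges at 7.23 CPM (median 2.02) and Pla2g4a at 101 CPM (median 50.4). Replicate 4 of the same group stood apart for Ptgs1 at 51.8 CPM (median 35.5) and Ptger2 at 14.6 CPM (median 9.13). In sensory nerve- rats of day 14, replicate 2 held 4.68 CPM of Ptges (median 1.70), replicate 3 held 4.86 CPM of Hpgd (median 1.82) and replicate 4 held 32.0 CPM of Alox5 (median 12.7). In sensory nerve+ rats, replicate 3 of day 7 held 1.92 CPM of Ptgs2 (median 0.635) and replicate 3 of day 14 held 2.47 CPM of Ptges (median 1.06). Among the macrophages, LPS and CGRP replicate 1 was low in Ptges, at 14.5 CPM (median 15.7).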

How the results depend on the processing

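The number of members that passed was 0 under all alternatives for the transection comparisons and for CGRP. For day 3 against day 14, sensory nerve+ rats had 2 members in the main analysis. They had 1 with RLE size factors, with library totals or with no filter, and 0 with the replicate block (range 0 to 3 with 1 rat left out). Sensory nerve- rats had 3 in the main analysis (range 1 to 4). They had 2 with library totals or the replicate block, and 4 with DESeq2 or all 23 rats in 1 fit. For day 3 against day 7 the counts were 2 with DESeq2 and 1 with all 23 rats in 1 fit in sensory nerve+ rats against 0 (range 0 to 2), and 0 with the replicate block in sensory nerve- rats against 2 (range 0 to 2). For day 7 against day 14 DESeq2 gave 1 in sensory nerve+ and 4 in sensory nerve- rats against 0 (range 0 to 1 in the latter). The correlations of same-numbered rats ran from -0.36 to 0.41 and those of cultures from -0.11 to 0.20. For transection at day 7 all 4 pairs were positive, from 0.03 to 0.31. With 3 to 5 pairs per comparison, whether the replicate numbers pair the samples cannot be decided. The cause of these changes was not tested.

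Of the members' log2 fold changes, 21 of 660 changed sign under an alternative other than leaving out a sample and 69 of 986 with a sample left out, none of them in a comparison in which that member had passed. Among those printed, Ptgs2 in the averaged transection was 0.056 with days 3 and 14 only (range -0.47 to 0.039 with 1 rat left out). In the macrophages Ptges was -0.037 in run 2 only (range -0.0023 to 0.032), Ptger4 -0.0055 with the replicate block and -0.030 in run 1 only (range -0.0074 to 0.033), and Alox5ap 0.00018 with library totals and 0.0076 in run 1 only (range -0.016 to 0.019).

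Counts over all genes moved more. DESeq2 passed 2751, 3408 and 335 genes in sensory nerve+ rats (day 3 against 7, 3 against 14, 7 against 14; 1002, 871 and 3 in the main analysis), 3224 and 1991 in sensory nerve- rats (day 3 against 7 and 7 against 14; 1524 and 2), 1 and 104 for transection at days 7 and 14, 7 for the average, each against 0, and 75 for CGRP against 2. Library totals gave 579, 547 and 13 in sensory nerve+ rats, 1184 for day 3 against 14 (3396) and 21 for day 7 against 14 in sensory nerve- rats, and 10 for CGRP. The block gave 122, 0 and 0 in sensory nerve+ rats, 2 and 0 in sensory nerve- rats (day 3 against 7 and 7 against 14) and 19 for CGRP. All rats in 1 fit gave 2606 for day 3 against 14 in sensory nerve+ rats, and 2287 and 927 in sensory nerve- rats. For CGRP edgeR gave 0, run 1 gave 1 and run 2 gave 6. Depth limits Ptgs2 and Ptges, with as few as 5 and 10 counts in a rat library, and Ptgs1, Alox15 and Hpgd in the macrophages.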
